A study of Homo sapiens with 6 samples.

Results

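HOX cluster genes were examined in a human embryonic stem cell line in which LINE-1 RNA was targeted. The members are the 39 rows of the count table whose symbol is HOX, a cluster letter from A to D and a paralog number, out of 53712 genes. HOXA has 11 of them, HOXB 10, HOXC 9 and HOXD 9. A read was present for 35 members, and HOXA4, HOXA6, HOXC12 and HOXD4 had no read in any library. The cells were H9, an established line kept in PXGL, a medium for naive pluripotency. ASO-L1 cells received an antisense oligonucleotide directed at LINE-1. SO-L1 cells received the sense one and are the comparison group here. Each was given at 25 nM with Lipofectamine Stem. Cells of both groups were also given trans-ISRIB (which blocks the integrated stress response), emricasan (which blocks caspases) and the ROCK inhibitor Y-27632 for the first 24 hours. RNA of unsorted cells was taken at 48 hours, poly(A)-selected and sequenced with a directional kit, with 3 libraries per group numbered alike in both. The labels do not say whether replicates came from separate cultures, so the p-values reflect the spread between these libraries, and that spread may be technical.

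HOX genes encode homeodomain transcription factors that give cells along the head-to-tail axis their position. Within a cluster the genes lie in the order of their paralog numbers, low numbers acting in the hindbrain and neck and high numbers in the lumbar region, tail, limb ends and genital tract. In pluripotent cells most of them are held silent by Polycomb complexes, retinoic acid opens the clusters from the low-number end, and CDX factors act on the middle and posterior genes. LINE-1 elements are autonomous retrotransposons of the human genome.

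The start regions of HOXB1 and HOXD13 are printed because these genes lie at opposite ends of their clusters and moved in opposite directions. Each stretch runs 5′ to 3′ on the gene's strand from 250 bases before to 20 bases after the RefSeq start. HOXB1 lies at chr17:48530992-48531261 on the minus strand and HOXD13 at chr2:176092471-176092740 on the plus strand, both in GRCh38.p14. Capitals mark the motif matches named after them.
HOXB1: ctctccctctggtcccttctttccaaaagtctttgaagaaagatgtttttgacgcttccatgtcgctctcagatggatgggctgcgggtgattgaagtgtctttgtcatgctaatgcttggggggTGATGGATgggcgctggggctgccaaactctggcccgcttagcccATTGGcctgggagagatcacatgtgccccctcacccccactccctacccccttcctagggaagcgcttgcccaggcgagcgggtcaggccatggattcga
HOXD13: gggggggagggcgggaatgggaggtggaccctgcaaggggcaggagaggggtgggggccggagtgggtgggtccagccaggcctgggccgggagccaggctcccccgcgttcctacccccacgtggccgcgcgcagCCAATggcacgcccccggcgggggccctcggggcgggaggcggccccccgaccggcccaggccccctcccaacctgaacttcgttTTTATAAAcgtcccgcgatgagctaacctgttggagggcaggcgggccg
In the HOXB1 stretch, TGATGGAT, the letters of a site bound by PBX and HOX proteins together in mouse Hoxb1, begins 125 bases before the start, and CCAAT is read on the opposite strand at 80 bases. The HOXD13 stretch has CCAAT at 114 bases and TATAAA at 27 bases before the start, the TATAAA overlapped by its match on the other strand at 29 bases.

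RefSeq windows of 300 bases, from 250 before to 50 after the start, matched 20 HOX genes with 27 windows out of 35116 in all. No window was matched for HOXB genes other than HOXB1 or for HOXC6 to HOXC13. HOXA3 has several windows, and HOXC4 and HOXC5 share the same window. The HOX shares below are thus shares of these windows, not of the family. Both strands were searched. TGATGGAT was found in 1 HOX window, that of HOXB1, and in 0.595% of all windows. CCAAT was found in 18 of 27 HOX windows, against 34.6% of all windows, and TATAAA in 5 of 27, against 11.5%. TTTATG, a core recognised by CDX proteins, was found in 3 of 27, against 10.6%. AGGTCA, the core of retinoic acid response elements, was found in 0 of 27, against 13.8%, which says only that these letters are not in these windows. The median number of CpG dinucleotides was 22 in the HOX windows and 14 in all windows, with 11 in that of HOXB1 and 24 in that of HOXD13.

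Library totals were 23330875 to 31164287 counts in ASO-L1 and 24027869 to 30956692 in SO-L1. The main axis of variation (68.8% of the variance of log2 CPM, read counts scaled to library size) divided ASO-L1 from SO-L1, with replicate 2 apart from the others in each. The table has 0 rows for LINE-1, and its knockdown is not analysed here. Of the naive markers, KLF17 was at 0.395 ± 0.146 CPM in ASO-L1 and 0.743 ± 0.196 CPM in SO-L1, and ARGFX at 0.0570 ± 0.0663 and 0.130 ± 0.0865 CPM, near 0 in both groups. The other 10 naive markers were expressed, among them KLF4 at 73.9 ± 22.5 CPM in ASO-L1 and 44.9 ± 5.78 CPM in SO-L1, DNMT3L at 57.4 ± 7.24 and 79.8 ± 2.90 CPM, and DPPA3 at 9.37 ± 2.33 and 17.3 ± 0.859 CPM. POU5F1 was at 1135 ± 79.4 CPM in ASO-L1 and 1264 ± 67.7 CPM in SO-L1, SOX2 at 225 ± 22.2 and 245 ± 26.0 CPM, and NANOG at 84.9 ± 13.4 and 103 ± 1.81 CPM (SD, n = 3 each). Their adjusted p-values by edgeR's quasi-likelihood test were 0.114, 0.318 and 0.0553, and with the replicate number as a block 0.0391, 0.0770 and 0.00396, so that POU5F1 and NANOG then passed as lower in ASO-L1.

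In 5 of the 6 libraries most HOX reads came from the anterior end of HOXB, the exception being ASO-L1 replicate 2. HOXB1, HOXB2 and HOXB3 held 54.8%, 40.1% and 60.8% of all HOX reads in ASO-L1 replicates 1, 2 and 3, and 86.4%, 76.9% and 84.7% in SO-L1. The shares of the groups did not overlap. HOXB1 alone, the gene of the segment of the hindbrain that gives rise to the facial nerve, held 23.8%, 15% and 29.5% in ASO-L1 and 49.5%, 43.8% and 49.3% in SO-L1. Scaled to merged exon length, the order of mean levels in ASO-L1 was HOXB2 (3.61 CPM per kb), HOXB1 (2.18), HOXC13 (0.665), HOXC6 (0.482) and HOXB7 (0.463). In SO-L1 it was HOXB1 (5.61 CPM per kb), HOXB2 (4.92), HOXB3 (0.421), HOXC6 (0.303) and HOXC8 (0.285). In SO-L1 the SDs of HOXB1 (1.34) and HOXB2 (1.26) exceed the distance between them, and HOXC6 and HOXC8 likewise did not differ beyond theirs (0.182 and 0.114).

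**Figure D1:**
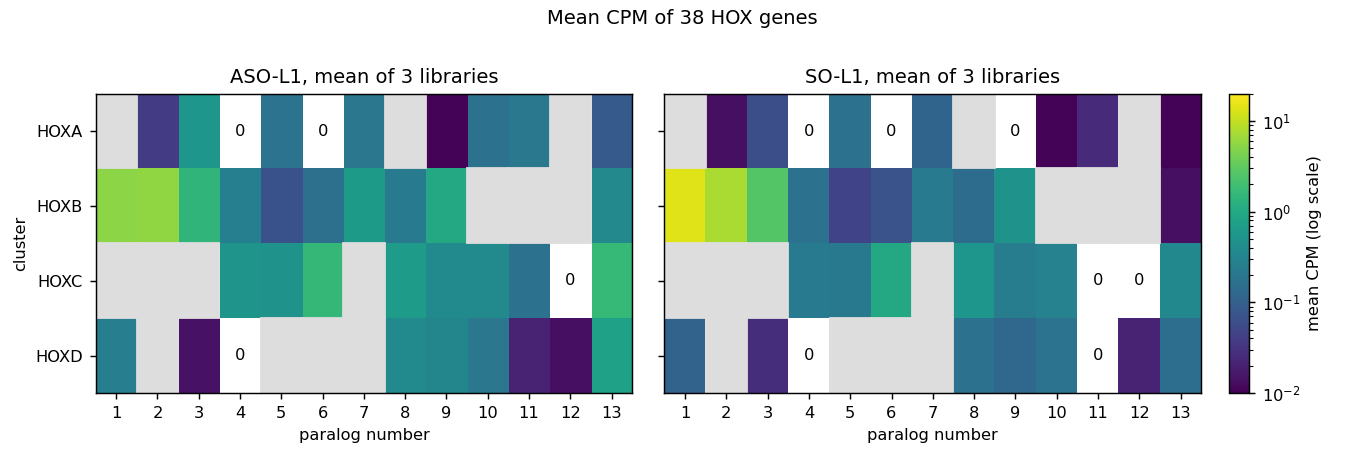
Mean CPM of 38 HOX genes by cluster (rows) and paralog number (columns), ASO-L1 on the left and SO-L1 on the right, on a log colour scale. Grey cells are positions with no gene in humans or with a gene not shown, and 0 marks a gene with no read in that group; HOXB1 to HOXB3 are the brightest in SO-L1, and HOXC13 and HOXD13 are brighter in ASO-L1.

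HOXB1 and HOXB3, at the anterior end of HOXB, fell after ASO-L1. HOXB1 had 5.03, 4.77 and 6.36 CPM in ASO-L1 replicates 1, 2 and 3 (122, 109 and 196 reads), against 12.7, 17.6 and 11.3 CPM in SO-L1 (397, 434 and 347 reads). Every ASO-L1 library lay below every SO-L1 library, and the means were 5.39 ± 0.849 and 13.9 ± 3.33 CPM (SD, n = 3 each). HOXB1 fell by 1.35 ± 0.18 (SE) on the log2 scale, with an edgeR adjusted p of 0.00173, and was called under every setting tried, with 0.00129 to 0.0174 when single libraries were left out. HOXB3, a hindbrain gene, had 1.07, 1.71 and 1.59 CPM in ASO-L1, against 2.40, 3.50 and 2.02 CPM in SO-L1, and its groups did not overlap. It fell by 0.84 ± 0.26 (edgeR adjusted p = 0.0323). The call of HOXB3 was lost without ASO-L1 replicate 1 (0.101), SO-L1 replicate 1 (0.0768) or SO-L1 replicate 2 (0.100), and when replicate 1 of both groups was left out (0.183). It was also lost in edgeR's test against a 1.2-fold change (adjusted p = 0.093). HOXB2, which acts with HOXB1 in the facial motor neurons of the mouse, had 5.48, 6.26 and 5.16 CPM in ASO-L1, against 7.07, 9.88 and 6.09 CPM in SO-L1. Its groups overlapped, and its log2 fold change of -0.44 ± 0.18 did not pass (edgeR adjusted p = 0.0842), although it did with the replicate number as a block (-0.42 ± 0.13, adjusted p = 0.0118). As the cells were measured in bulk, fewer cells with a given RNA and less RNA per cell cannot be told apart.

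At the posterior end HOXC13 and HOXD13 were higher. HOXC13, a gene of hair and nail formation, had 0.783, 2.98 and 1.07 CPM in ASO-L1 (19, 68 and 33 reads), against 0.416, 0.366 and 0.261 CPM in SO-L1 (13, 9 and 8 reads). The groups did not overlap, and ASO-L1 replicate 2 stood well above the other libraries. HOXC13 rose by 2.18 ± 0.54 on the log2 scale (edgeR adjusted p = 0.0135), and the call was lost without SO-L1 replicate 3 (0.0602). HOXD13, a gene of digit formation, had 0.453, 1.40 and 0.486 CPM in ASO-L1 (11, 32 and 15 reads), against 0.0959, 0.366 and 0 CPM in SO-L1 (3, 9 and 0 reads). All ASO-L1 libraries were above all SO-L1 libraries, replicate 2 being the highest of each group. HOXD13 rose by 2.40 ± 0.83 (edgeR adjusted p = 0.0493), close to the threshold. That call was lost without ASO-L1 replicate 1 (0.0544) or 2 (0.109), SO-L1 replicate 1 (0.144) or 3 (0.112), replicate 1 of both groups (0.158), replicate 3 of both (0.0711), and with DESeq2 size factors (0.0509). HOXD13 was also not called in edgeR's test against a 1.2-fold change, where HOXC13 was.

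**Figure D2:**
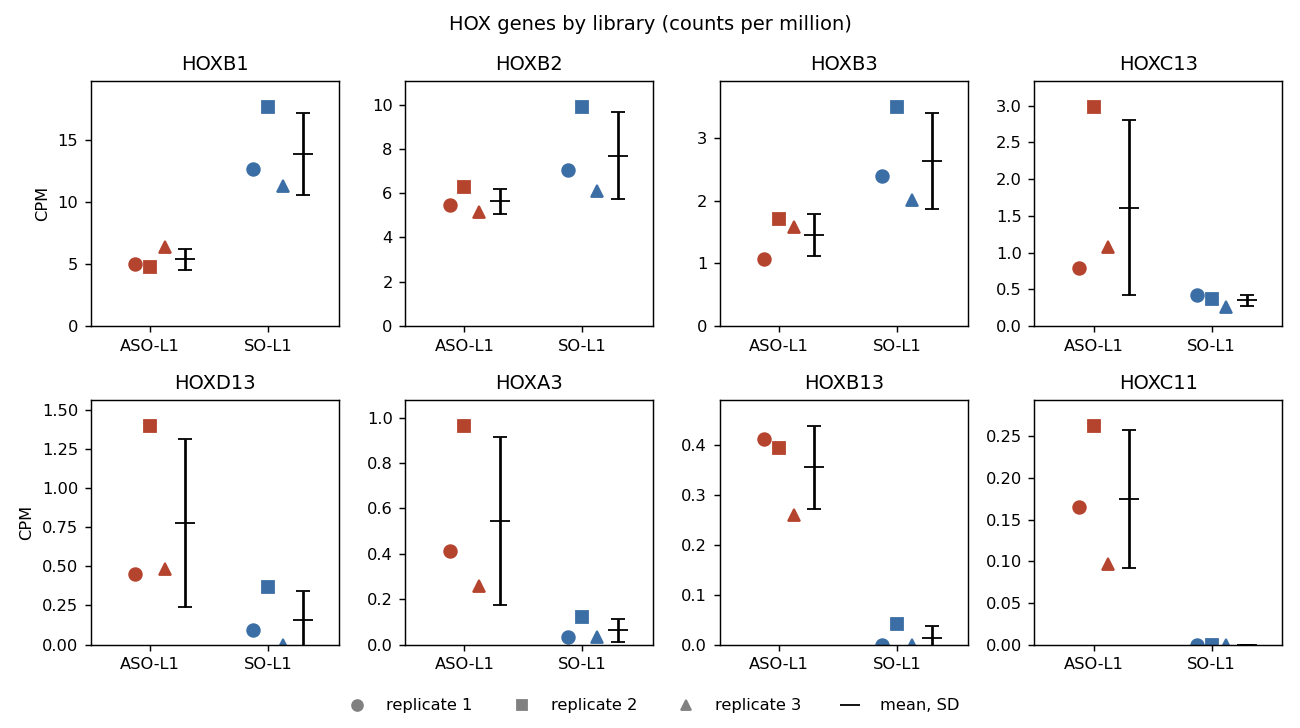
CPM of 8 HOX genes in each library, ASO-L1 left and SO-L1 right in each panel, with the marker shape giving the replicate number and the bars the mean and SD of 3 libraries; each panel has its own axis from 0, where a bar that would pass below it ends. HOXB1 and HOXB3 are lower in all ASO-L1 libraries, HOXB2 overlaps, and HOXC13, HOXD13, HOXA3, HOXB13 and HOXC11 are higher in all of them.

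Of the 39 members, 12 had enough reads for the test (5 of HOXB, 6 of HOXC, 1 of HOXD and 0 of HOXA). HOXC13 and HOXD13 were called higher and HOXB1 and HOXB3 lower, at an adjusted p under 0.05. Among all 16873 tested genes 18.0% were called higher and 15.7% lower, so 2 of 12 each way is near the background. These 4 genes were also the tested members whose groups did not overlap, 2 higher and 2 lower, against 25.8% and 25.1% of all tested genes. The median log2 fold change of the 12 was 0.88, against -0.01 over all tested genes, but the filter favoured members high in 1 group. Only HOXB1, HOXB2, HOXB3 and HOXC6 were above the filter's 0.364 CPM in every SO-L1 library, so the median does not describe the 39.

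The other 7 tested members had a positive log2 fold change and did not pass. For HOXB7, a trunk gene, it was 1.59 ± 0.82 (edgeR adjusted p = 0.160), with 0.495, 1.05 and 0.357 CPM in ASO-L1 against 0.0639, 0.569 and 0.0326 CPM in SO-L1. HOXC6, a thoracic gene, had 0.948, 2.58 and 1.17 CPM in ASO-L1 against 0.608, 1.67 and 0.684 CPM in SO-L1, and a log2 fold change of 0.68 ± 0.48 (0.298). In both genes replicate 2 was the highest library of each group, and the groups overlapped. HOXB9, which patterns ribs in the mouse, had 1.04 ± 0.48 (0.113), HOXC4, a neck and upper thoracic gene, 1.24 ± 0.60 (0.127), and HOXC5, its neighbour, 1.15 ± 0.55 (0.126). HOXC8 and HOXC9, which set motor neuron types of the mouse spinal cord at arm and thoracic level, had 0.30 ± 0.36 (0.541) and 0.72 ± 0.96 (0.583). With the replicate number as a block, 6 of 12 members were called higher, against 23.3% of all tested genes, and 3 lower, against 22.5%. The added calls were HOXB7 (adjusted p = 0.0108), HOXB9 (0.0195), HOXC6 (0.0347), HOXC4 (0.0446) and, lower, HOXB2. HOXC4 and HOXC5 share a RefSeq start window and start windows of HOXA3 lie beyond HOXA4 and HOXA6, and how reads in overlapping genes were assigned is not given in the sources used here.

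The 27 members under the filter had few reads, and 23 of them had any. HOXA3, a gene of thymus and parathyroid formation in the mouse, had 10, 22 and 8 reads in ASO-L1 against 1, 3 and 1 in SO-L1. HOXB13, a prostate and tail gene, had 10, 9 and 8 reads in ASO-L1 against 0, 1 and 0 in SO-L1. HOXA11, a gene of the forearm and uterus, had 2, 8 and 6 reads in ASO-L1 against 0, 1 and 1. HOXC11, a posterior gene, had 4, 6 and 3 reads in ASO-L1 and 0 in each SO-L1 library. The groups did not overlap in any of these 4. Scaled to depth and pooled per group, ASO-L1 exceeded SO-L1 by a ratio of 8.89 for HOXA3 (95% exact counting interval 3.51 to 28.8), 30.0 for HOXB13 (4.94 to 1228) and 8.89 for HOXA11 (2.09 to 79.7). For HOXC11, with no SO-L1 read, the exact interval began at 3.39. Taking 3 reads over the SO-L1 group as its limit, and the ASO-L1 count as exact, gave a ratio of 4.81. The intervals cover counting error only, and that limit covers the counting error of SO-L1 alone.

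With a looser filter, a CPM above 0.2 in 1 library, 27 HOX genes were tested, and HOXA3, HOXA11, HOXB13, HOXC11 and HOXC13 were called higher and HOXB1 and HOXB3 lower. That is 5 and 2 of 27, against 14.5% and 12.0% of the 20964 genes tested. HOXA3, HOXA10, HOXA11, HOXB13 and HOXC11 passed this filter through ASO-L1 libraries alone, so for them a difference was built into the filter. The log2 fold change was 3.09 ± 0.75 for HOXA3 (edgeR adjusted p = 0.00840), 4.46 ± 1.03 for HOXB13 (0.00446) and 2.93 ± 1.1 for HOXA11 (0.0496). For HOXC11 the adjusted p was 0.0238. HOXD13 did not pass here (0.0530). Without replicate 1 of both groups HOXA3 (0.0838), HOXB13 (0.0769), HOXC11 (0.128) and HOXA11 (0.129) were lost. HOXA11 was lost without replicate 2 (0.130) or 3 (0.150) as well, and so was HOXC11 (0.0536 and 0.0587). With the block, HOXB7, HOXB9, HOXC6, HOXD13 and, lower, HOXB2 were called too, making 9 of 27 members higher, against 19.3% of the 20964 genes, and 3 lower, against 18.1%.

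Among the other members under the filter, HOXA13, a gene of digits and genital tract, had 1, 2 and 4 reads in ASO-L1 against 0, 0 and 1 in SO-L1, HOXB6, a trunk gene, 3, 4 and 6 against 3, 2 and 1, and HOXD8, another trunk gene, 7, 9 and 13 against 8, 6 and 1. Scaled to depth, the groups of these 3 genes did not overlap. In raw reads they met or overlapped, so the separation rests on the scaling. Among all 19166 genes with a read and a mean under 1 CPM, 7.15% had all ASO-L1 libraries above all SO-L1 libraries. HOXA10, a uterine gene, had 3, 9 and 0 reads in ASO-L1 against 1, 0 and 0 in SO-L1. HOXD9 had 10, 8 and 7 against 2, 7 and 1, and HOXD1 4, 10 and 5 against 0, 5 and 4. HOXA7 had 3, 11 and 0 reads against 0, 7 and 2, and HOXB4, known from blood stem cells, 6, 8 and 6 against 3, 8 and 3. The groups of these 5 overlapped. Nearest to equal were HOXA5, a lung gene (3, 8 and 2 reads in ASO-L1 against 4, 7 and 3 in SO-L1), HOXC10, of lumbar motor neurons (7, 14 and 6 against 6, 13 and 5), HOXD10, also lumbar (7, 6 and 2 against 3, 7 and 5), HOXB5 (1, 3 and 1 against 1, 1 and 2) and HOXB8 (5, 9 and 3 against 5, 6 and 1). The remaining 5 with a read, HOXA2, HOXA9, HOXD3, HOXD11 and HOXD12, had 0 to 2 reads in every library, too few to show a difference.

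**Figure D3:**
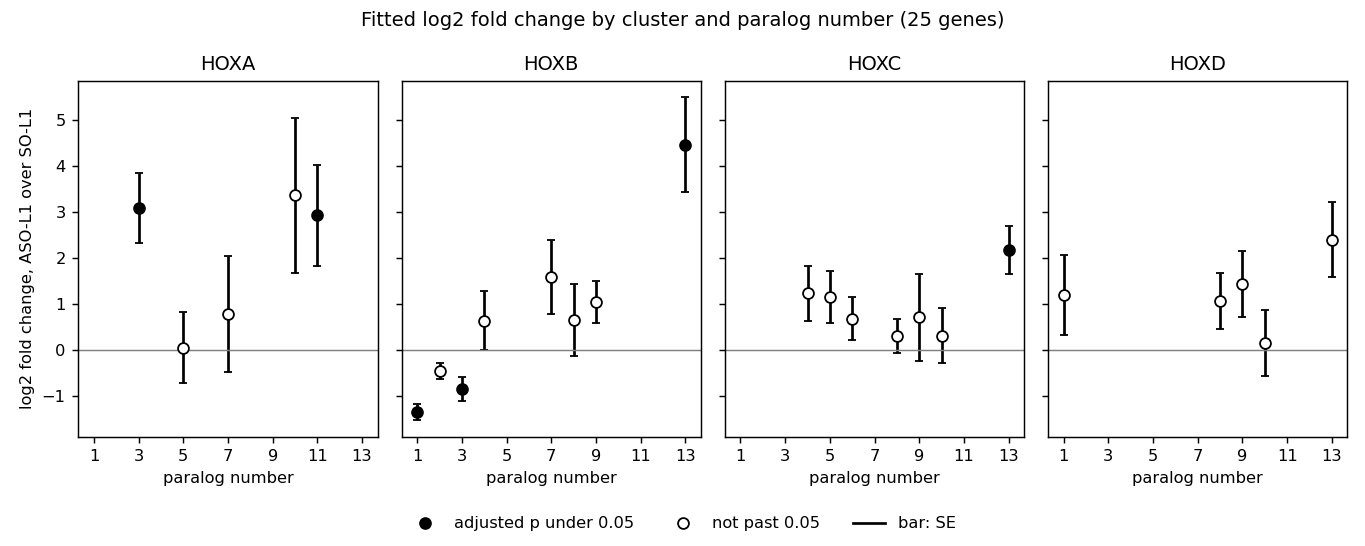
Log2 fold change, ASO-L1 over SO-L1, of 25 HOX genes against paralog number, 1 panel per cluster, from the fit with the looser filter; bars are the standard error and filled points passed an adjusted p of 0.05. HOXC11, tested but with no SO-L1 read, and another tested gene are not drawn; the points below 0 are HOXB1, HOXB2 and HOXB3.

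Outside HOXB1, HOXB2 and HOXB3 nearly all members had a higher mean in ASO-L1. Of the 32 with a read, 30 did, HOXD3 and HOXD12 being the exceptions, each with at most 2 reads in a library. HOXB1, HOXB2 and HOXB3 were lower in these same data, so leaving them out raises the share. Over all 35 members with a read 30 were higher (85.7%), against 51.9% of all 33437 genes with a read. Within replicate 1, 28 of the 32 were higher in ASO-L1, 3 equal and 1 lower. Within replicate 2 it was 25, 3 and 4, and within replicate 3 it was 25, 2 and 5. Shares over all genes are not given for these counts by replicate, so they have no background. They also rest on pairing by replicate number, which was weak for replicate 1. Its ASO-L1 library correlated at 0.102 with SO-L1 replicate 1 and at 0.162 with SO-L1 replicate 3. Of the 31 with a mean under 1 CPM, 10 had all ASO-L1 libraries above all SO-L1 libraries and 0 the reverse. Among all 19166 genes with a read and a mean under 1 CPM these shares were 7.15% and 4.30%. Those genes were not matched to the HOX members by read count, and genes with very few reads can hardly keep the groups apart. For HOXA13, HOXB6 and HOXD8, counted among the 10, the groups were apart only after scaling to depth. Among the 16873 tested genes the shares were 25.8% and 25.1%. A higher mean in ASO-L1 was seen in 93.5% of the 31 and in 54.9% of the 19166. HOX genes detected per library numbered 32, 31 and 31 in ASO-L1 and 25, 29 and 27 in SO-L1. SO-L1 replicates 1 and 3 were deeper than ASO-L1 replicates 1 and 2. The numbers detected over all genes are not given, so these counts have no background beside them. Detection of members such as HOXA9 and HOXD11 rests on at most 2 reads in a library, and the part of depth was not tested.

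Summed over genes, HOXB1 to HOXB3 and the rest of the family went opposite ways. HOXB1 to HOXB3 together had 11.6, 12.7 and 13.1 CPM in ASO-L1, against 22.2, 31.0 and 19.4 CPM in SO-L1, a ratio of means of 0.516 with no overlap. The other 36 genes together had 9.56, 19.1 and 8.46 CPM in ASO-L1, against 3.49, 9.31 and 3.52 CPM in SO-L1, a ratio of 2.27. There the groups overlapped, because SO-L1 replicate 2 lay above ASO-L1 replicate 3, while within each replicate number ASO-L1 was the higher. The ratio of summed means was 3.04 for HOXA, 2.35 for HOXB4 to HOXB13, 2.01 for HOXC and 2.49 for HOXD, each with overlapping groups. All 39 together had a ratio of 0.838, with overlapping groups. These sums are descriptions, as members are not replicates. HOXB1 to HOXB3 were lower in these same data, so the split itself favours opposite directions.

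**Figure D4:**
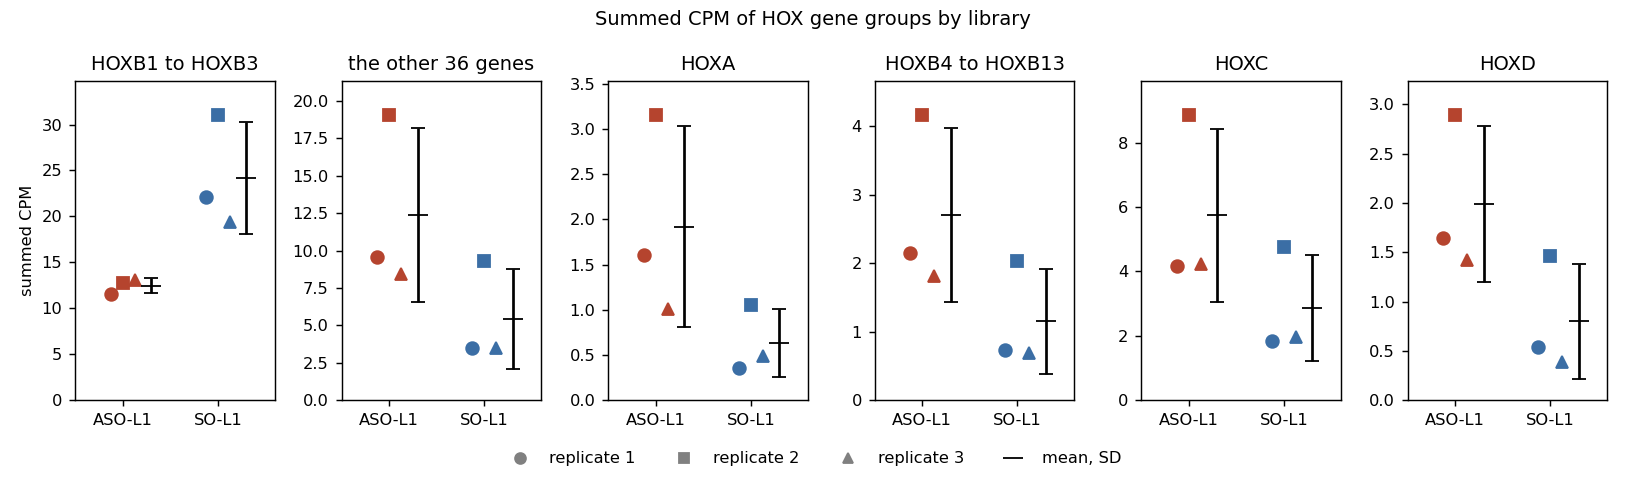
Summed CPM of 6 groups of HOX genes in each library, ASO-L1 left and SO-L1 right in each panel, with marker shape for the replicate number and bars for the mean and SD of 3 libraries; each panel has its own axis from 0. HOXB1 to HOXB3 are lower in ASO-L1 without overlap, and in the other panels replicate 2 is the highest library of each group.

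By paralog number the ratio of summed means was lowest for paralog 1 (0.431, with no overlap), followed by 0.737 for paralog 2 and 0.739 for paralog 3, which overlapped. The ratios were 1.95, 1.69, 1.64, 2.47, 1.45, 2.0 and 1.53 for paralogs 4 to 10, and all 7 overlapped. Paralog 11 had 0.247, 0.613 and 0.357 CPM in ASO-L1, against 0, 0.0406 and 0.0326 CPM in SO-L1. Paralog 13 had 1.69, 4.86 and 1.95 CPM in ASO-L1, against 0.512, 0.772 and 0.293 CPM in SO-L1, a ratio of 5.39. In paralogs 11 and 13 the groups did not overlap. Paralog 12 had 3 reads in all. The low ratios of paralogs 1 to 3 come from HOXB: HOXA3 and HOXD1 had higher means in ASO-L1.

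Noncoding RNAs of the clusters were too low to test: of 24 in the table, 16 had a read and 0 passed the filter. HOTAIRM1, of the HOXA cluster, had 14, 20 and 5 reads in ASO-L1 against 2, 8 and 3 in SO-L1, and HOXB-AS5 7, 5 and 3 against 2, 1 and 0. HOXB-AS1, antisense to the HOXB2 and HOXB3 region, had 2, 0 and 3 reads in ASO-L1 against 9, 3 and 8 in SO-L1. Scaled to depth, the groups of HOXB-AS5 and HOXB-AS1 did not overlap and those of HOTAIRM1 did. In raw reads the groups of HOXB-AS1 met at 3 reads, so its separation rests on the scaling. HOTAIR, of the HOXC cluster, had 0, 4 and 1 reads in ASO-L1 and none in SO-L1. Whether counting used the strand is not given in the sources used here, so reads of HOXB-AS1 and of HOXB2 or HOXB3 may not be separable.

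Genes known to act on the HOX clusters were called in both directions, against 18.0% higher and 15.7% lower over all tested genes. Of 15 tested retinoic acid genes 3 rose and 5 fell. RARA, a retinoic acid receptor, was at 21.0 ± 5.99 CPM in ASO-L1 and 7.19 ± 1.45 CPM in SO-L1 (log2 fold change 1.55 ± 0.21, edgeR adjusted p = 0.00224). CYP26B1, which degrades retinoic acid, was at 1.68 ± 0.669 and 0.374 ± 0.185 CPM (2.16 ± 0.42, 0.00468). RXRB, a partner of the receptors, rose by 0.59 ± 0.12 (0.00570), and STRA6, a retinol uptake receptor, fell by 0.48 ± 0.12 (0.0142). Of 12 tested upstream regulators 2 rose and 2 fell. EGR2, which activates Hoxb2 in the mouse hindbrain, was at 4.14 ± 2.61 CPM in ASO-L1 and 0.508 ± 0.150 CPM in SO-L1 (3.02 ± 0.49, 0.00369). GDF11, a growth factor of the trunk-to-tail transition, fell by 0.53 ± 0.10 (0.00396) and NR6A1, a nuclear receptor of the trunk, by 0.45 ± 0.09 (0.00522). Without replicate 1 of both groups the calls of RXRB (0.0660), STRA6 (0.0987), GDF11 (0.0576) and NR6A1 (0.0502) were lost.

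Both tested ParaHox genes were called. CDX2, an activator of middle and posterior HOX genes in the mouse, had 1.11, 3.29 and 1.01 CPM in ASO-L1 against 0.512, 0.366 and 0.228 CPM in SO-L1. It rose by 2.24 ± 0.54 (edgeR adjusted p = 0.0131), but did not pass without SO-L1 replicate 3 (0.0573) or replicate 1 of both groups (0.0530). CDX4 fell by 0.48 ± 0.15 (0.0352), lost without ASO-L1 replicate 1 (0.100) or 2 (0.0640) or SO-L1 replicate 2 (0.0934) or 3 (0.104), and without any 1 replicate number of both groups (0.0688 to 0.119). Of the 11 TALE homeobox genes, whose proteins bind DNA together with HOX proteins, 1 rose and 2 fell. PBX4 rose by 0.91 ± 0.17 (0.00431). PBX2 fell by 0.39 ± 0.09 (0.00874), a call lost without SO-L1 replicate 3 (0.0511). Of 20 tested Trithorax and MLL complex genes, which oppose Polycomb at HOX genes, 5 rose and 4 fell, near the shares over all genes. RBBP5 rose by 0.40 ± 0.07 (0.00380) and the methyltransferase gene DOT1L by 0.46 ± 0.10 (0.00641), while ASH2L fell by 0.47 ± 0.06 (0.00173) and MLLT1 by 0.38 ± 0.08 (0.00653). Without replicate 1 of both groups the calls of PBX4 (0.0558), PBX2 (0.0778), RBBP5 (0.0612), DOT1L (0.0600) and MLLT1 (0.0537) were lost, and without replicate 3 of both those of PBX2 (0.0880) and MLLT1 (0.0849).

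**Figure D5:**
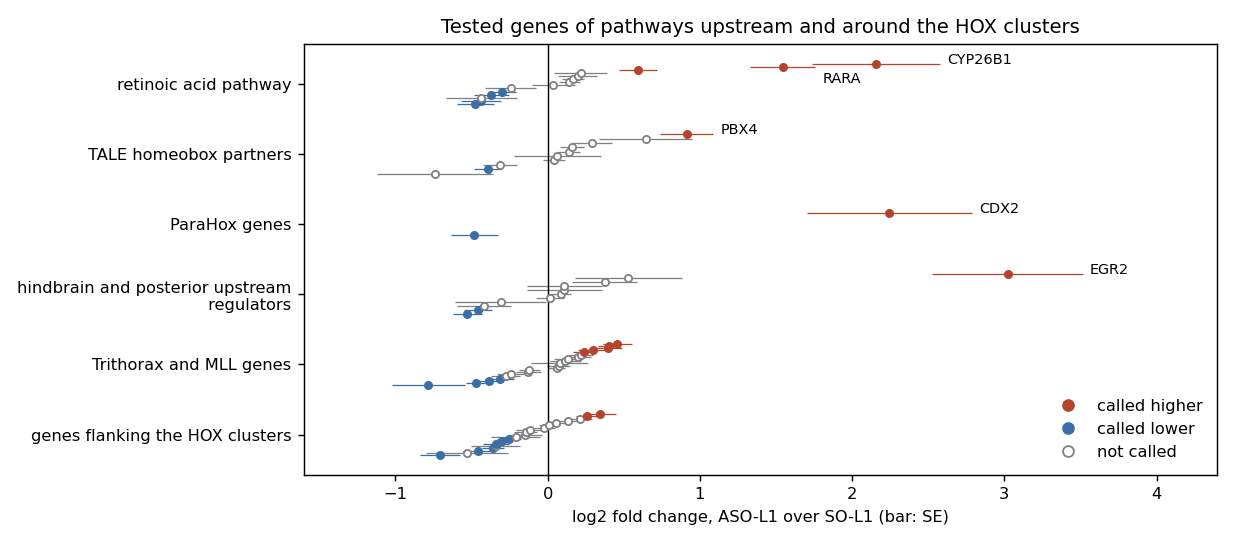
Log2 fold change, ASO-L1 over SO-L1, of tested genes in 6 lists, with 3 genes not shown and the standard error as bars; red and blue points were called higher and lower at an adjusted p of 0.05 and open points were not. CYP26B1, RARA, PBX4, CDX2 and EGR2 lie farthest to the right, and each list also has genes below 0.

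Of 19 tested genes flanking the clusters 2 rose and 6 fell, against 18.0% and 15.7% of all tested genes. KIAA1715, beside HOXD, fell by 0.71 ± 0.13 (edgeR adjusted p = 0.00424), COPZ1 and CBX5, beside HOXC, by 0.46 ± 0.09 (0.00566) and 0.36 ± 0.07 (0.00526), and TAX1BP1, beyond HOXA, by 0.30 ± 0.06 (0.00451). TAX1BP1 (0.0832) and COPZ1 (0.0838) were lost without replicate 1 of both groups and CBX5 (0.0584) without replicate 3 of both. The median log2 fold change was -0.15 for the flanking genes, 0.04 for the retinoic acid, 0.10 for the upstream, 0.06 for the TALE and 0.08 for the Trithorax list, against -0.01 for all tested genes.

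Markers of other cell types were called mostly higher, to be read against 18.0% higher and 15.7% lower over all tested genes. Several of the shares lie near these. Of 11 tested fibroblast and mesenchymal markers 5 rose and 0 fell, with summed levels of 691 to 832 CPM in ASO-L1 and 553 to 629 CPM in SO-L1. Among these, TAGLN was at 105 ± 23.8 CPM in ASO-L1 and 42.1 ± 4.02 CPM in SO-L1 (log2 fold change 1.32 ± 0.15, edgeR adjusted p = 0.00164). TWIST1 was at 40.6 ± 19.6 and 7.42 ± 3.59 CPM (2.47 ± 0.49, 0.0168), a call lost without SO-L1 replicate 3 (0.0528) or replicate 3 of both groups (0.138). COL1A1 was at 329 ± 16.3 CPM in ASO-L1 and 281 ± 13.9 CPM in SO-L1 (0.23 ± 0.06, 0.0212), lost without SO-L1 replicate 1 (0.0805) or 3 (0.0637) and without either number in both groups (0.142 and 0.115). COL1A2, at 203 ± 7.15 and 214 ± 14.4 CPM, did not pass (0.430). The matrix genes LUM and DCN were at 0.977 ± 0.438 and 0.0137 ± 0.0238 CPM in ASO-L1 and at 1.0 ± 0.427 and 0.108 ± 0.188 CPM in SO-L1. Of 6 neural and neural crest markers 2 rose and 0 fell (576 to 716 CPM in ASO-L1, 551 to 566 CPM in SO-L1), and of 8 mesoderm and endoderm markers 2 rose and 0 fell (27.4 to 34.9 and 20.5 to 28.9 CPM). Of 9 trophectoderm and amnion markers 2 rose and 0 fell (336 to 376 CPM in ASO-L1, 300 to 319 CPM in SO-L1), and of 9 primed markers 4 rose and 0 fell (857 to 915 and 669 to 703 CPM). Of 11 naive markers 2 rose and 5 fell (353 to 365 CPM in ASO-L1, 413 to 437 CPM in SO-L1), and of 8 core pluripotency genes 0 rose and 1 fell, or 6 fell with the replicate block (3645 to 4244 CPM in ASO-L1, 4306 to 4685 CPM in SO-L1). Their part in the HOX differences was not tested.

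The authors' deposited table lists 27 HOX genes. In the authors' deposited table, HOXB1 was lower (log2 fold change -1.33, adjusted p = 0.00299), and HOXB3 did not pass (-0.81, 0.0628). The authors' deposited table has 6 members higher at an adjusted p under 0.05: HOXB13 (3.88, 0.00591), HOXC11 (3.34, 0.0168), HOXA3 (2.82, 0.0184), HOXD13 (2.70, 0.0301), HOXC13 (1.88, 0.0316) and HOXB7 (2.21, 0.0470). Over all 20964 genes, 11.7% in the authors' deposited table were called higher and 9.77% lower. HOXC13, HOXA3, HOXB13 and HOXC11 were thus called higher both there and in the fit of the same 20964 genes here, HOXD13 and HOXB7 there alone, and HOXA11 here alone. Both rest on the same libraries, so a shared call is not independent support. In the fit here HOXA3, HOXB13 and HOXC11 also passed the filter through ASO-L1 libraries alone.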

How the data were processed

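Poly(A) RNA of H9 cells was sequenced in 3 ASO-L1 and 3 SO-L1 libraries. The authors deposited raw read counts per gene symbol, with duplicates removed per the file's title. Trim Galore 0.4.0, TopHat2 2.0.13, featureCounts, Subread 1.5.0 and hg19 are named in the submitters' processing notes, without roles. Not given in the sources used here are the annotation, the strand setting and the handling of reads in overlapping genes. With no molecular identifiers, duplicate removal reduces abundant genes most. Per the file headers, the authors' deposited comparison table holds a log2 fold change per gene with its moderated t score, its p-value and that p adjusted. Its model is not stated. A deposited log2 table with batch correction was not used.

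Counts were tested with edgeR 4.0.16 (R 4.3.3) by its quasi-likelihood test, two-sided, with TMM factors, Benjamini-Hochberg adjustment over all tested genes, and a call at an adjusted p under 0.05. The filter was filterByExpr (minimum count 10, minimum total 15), which kept 16873 of 53712 genes. Standard errors are log2 fold changes over the root of the F value. Levels are CPM with TMM factors, given with SD over 3 libraries. With 3 against 3 libraries the smallest exact two-sided permutation p is 0.1, so none is given. The common biological coefficient of variation was 10.2%, and 3 reads, the limit that a count of 0 allows, equal 0.0959 to 0.131 CPM per library.

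Same-numbered libraries were compared by their deviations from the mean of their group, whose correlation was 0.102, 0.377 and 0.211. Each was over 0.1, so the numbers were taken as pairs for the block fit and the comparisons within replicates. The main fit used no pairing. ASO-L1 replicate 1 correlated more with SO-L1 replicate 3 (0.162), and SO-L1 replicate 1 more with ASO-L1 replicate 3 (0.156), so the pairing of replicate 1 is weak. All HOX genes were named; from the other lists up to 4 called genes with the smallest p were eligible, plus POU5F1, SOX2 and NANOG, and genes named beyond these, such as STRA6, KLF17, ARGFX, KLF4, COL1A2, LUM, DCN and the noncoding RNAs, were picked with their values known. The members and lists were chosen with earlier results of these data known. Single values of 1 HOX gene and 3 genes of the other lists are not reported here, while counts and sums include them. DESeq2 1.42.0 and limma 3.58.1 served as alternatives. Exon lengths came from the GENCODE basic annotation of GRCh38 and promoter windows from RefSeq.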

Additional observations from a re-analysis of the deposited data

How the results depend on the processing

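The count of HOX genes called higher depended on the filter and the model. Against 2 of 12, it was 1 with DESeq2 size factors, 1 against a 1.2-fold change and 6 with the replicate block (23.3% of all genes). It was 5 of 27 with a CPM above 0.2 in 1 library (14.5%) and 9 of 35 with no filter (9.34% of 33437 genes). The 33437 genes were not matched to the HOX genes by read count. With a CPM above 1 in 3 libraries 4 members were tested and 0 called higher, while HOXB1 and HOXB3 were called lower. Counting both directions, 3 of the 4 had an unadjusted edgeR p under 0.05, and only 1 of the 4 had a positive log2 fold change. DESeq2 and limma-voom gave 2 higher and 2 lower. HOX genes called lower numbered 1 against a 1.2-fold change, where HOXC13 and HOXB1 kept their calls and HOXD13 and HOXB3 lost theirs. Leaving out libraries gave 0 to 4 higher and 1 to 2 lower. It gave 4 higher without SO-L1 replicate 2 or without replicate 2 of both groups. Without SO-L1 replicate 3 it gave 0 higher, with HOXB1 and HOXB3 called lower. There 5 members had an unadjusted edgeR p under 0.05, counting both directions.

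Settings chosen after seeing the data combined the CPM above 0.2 with another choice. With the replicate block 9 were higher. Without replicate 1 of both groups 1 was higher and 1 lower, and without replicate 2, 7 were higher. HOXA5 reversed to -0.30 without replicate 2 and HOXD10 to -0.50 without replicate 1, and neither was called; the cause was not tested.

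Of all tested genes 5684 were called, 2066 against a 1.2-fold change and 1033 to 7185 when libraries were left out, with 3165 without SO-L1 replicate 1, 2948 without SO-L1 replicate 3, and 1556 and 3055 with the CPM above 0.2 without replicate 1 or 3. In the 6 companion lists 34 genes were called, 10 against a 1.2-fold change and 7 to 42 when libraries were left out (20 without SO-L1 replicate 3, 7 without both replicates 1, 17 without both replicates 3), and 12 and 19 with the CPM above 0.2 without replicate 1 or 3. The block changed no HOX call other than those given above. All 48 recomputed sums kept their direction.

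Depth limits the 27 members under the filter, where 3 reads equal 0.0959 to 0.131 CPM and intervals span several-fold.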
